A study of Mus musculus with 24 samples.

Results

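The hippocampus (HIP) of Ts65Dn mice was compared with the entorhinal cortex (EC) of the same mice by RNA sequencing. The comparison took the 6 HIP and the 6 EC libraries that the sample labels give to Ts65Dn, which are 12 of the 24 libraries of the study, and paired them by replicate number, since both regions with 1 number came from 1 mouse. All mice were male, aged 5 to 6 months, on an F1 background called B6C3B. Ts65Dn mice, a model of Down syndrome from The Jackson Laboratory, carry a freely segregating minichromosome with the distal part of mouse chromosome 16 (Mmu16), from Mir155 to Zbtb21, joined to the centromeric part of chromosome 17 (Mmu17), from Scaf8 to Pde10a. Genes of both segments are therefore present in 3 copies, and those of the Mmu17 segment have no counterpart on human chromosome 21. The other 12 libraries are the same regions of 6 wild-type (wt) littermates, which have no minichromosome and are used here as other mice in which each region difference can be read.

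HIP and EC are connected parts of one memory circuit. Neurons of the superficial layers of EC send the perforant path to the granule cells of the dentate gyrus, which project by mossy fibres to CA3, and CA3 pyramidal cells project to CA1, whose axons return to the deep layers of EC. HIP is built of a single sheet of excitatory neurons in each field, and new granule cells are born in the dentate gyrus of the adult mouse. EC is a layered cortex, and layer and field each have known marker genes. Both regions were dissected as tissue, so a level is a sum over all cells in it. In such bulk samples, fewer cells of a type and less RNA per cell cannot be told apart.

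The files hold raw counts of reads per gene, and total counts lay between 23128589 and 33052023 (median 27451344) in HIP and between 24965888 and 37209160 (median 30580057) in EC of Ts65Dn. A level is given below as CPM, the count scaled to a common library total after TMM, an adjustment for library composition. It is not divided by gene length, so it compares libraries and not genes. A difference is given as a log2 fold change of HIP over EC with its standard error (SE), positive where HIP is higher. It comes from edgeR's quasi-likelihood test with a term for each mouse, and a gene is called, or named a differentially expressed gene (DEG), at a Benjamini-Hochberg adjusted p under 0.05 over all genes tested.

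One mouse stood apart before any comparison was made. Over the triplicated genes of Mmu16 (80 genes with a ratio), the median level relative to the wt mean of the same region was 1.43 to 1.54 in 5 Ts65Dn HIP libraries and 1.46 to 1.5 in 5 Ts65Dn EC libraries. In the libraries labelled Ts65Dn replicate 3 it was 1.02 in HIP and 0.99 in EC, which is the wt level. The 38 triplicated Mmu17 genes gave 1.37 to 1.51 in HIP and 1.42 to 1.56 in EC, against 0.972 and 0.974 in replicate 3. Both regions of this mouse went against the label. Results below include it, as labelled, unless stated otherwise, and the main counts and some values are also given without it.

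**Figure D1:**
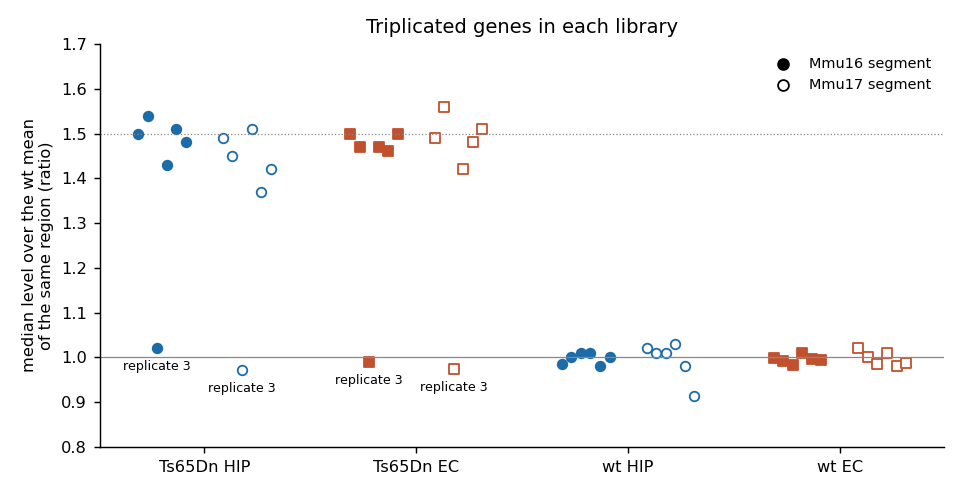
The y axis is the median, over triplicated genes, of the ratio of a library's CPM to the wt mean CPM of the same region, and each point is 1 library (filled points for the Mmu16 segment, open points for the Mmu17 segment, circles for HIP, squares for EC). In Ts65Dn all points lie between 1.37 and 1.56 except those of replicate 3, which lie between 0.972 and 1.02 beside the wt libraries.

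The promoters of genes with a large region difference are shown here because these genes lead the comparison and their start regions can be read beside their levels. Each sequence is the 250 bases before the RefSeq transcription start on GRCm38.p6, 5′ to 3′ on the gene's strand, and capitals mark E-boxes (CANNTG, on either strand), the motif bound by basic helix-loop-helix factors such as those of the Neurod family. The first 3 genes are higher in HIP and were taken, by fold change, from the dentate granule cell markers described below. They lie at chr1:120340332-120340581 on the plus strand (C1ql2), chr13:38151044-38151293 on the plus strand (Dsp) and chr1:128328319-128328568 on the minus strand (Lct).
C1ql2: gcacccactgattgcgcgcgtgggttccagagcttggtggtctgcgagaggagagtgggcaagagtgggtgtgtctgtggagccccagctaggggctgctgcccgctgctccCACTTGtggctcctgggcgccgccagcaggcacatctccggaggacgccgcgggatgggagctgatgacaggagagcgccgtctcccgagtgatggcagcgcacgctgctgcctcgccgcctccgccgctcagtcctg
Dsp: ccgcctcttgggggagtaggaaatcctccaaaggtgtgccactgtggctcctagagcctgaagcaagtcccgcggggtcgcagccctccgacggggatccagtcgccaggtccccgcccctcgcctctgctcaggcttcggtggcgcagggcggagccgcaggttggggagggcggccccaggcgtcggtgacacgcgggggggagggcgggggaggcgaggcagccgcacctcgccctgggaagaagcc
Lct: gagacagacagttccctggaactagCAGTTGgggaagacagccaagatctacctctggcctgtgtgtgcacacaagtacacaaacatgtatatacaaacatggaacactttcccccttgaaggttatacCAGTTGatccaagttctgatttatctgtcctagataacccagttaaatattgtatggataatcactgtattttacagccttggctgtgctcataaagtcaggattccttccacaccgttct

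The next 3 were taken, by fold change, from the leading genes higher in EC, whatever cell type they mark. They lie at chr11:49901585-49901834 on the plus strand (Rasgef1c, the more upstream of 2 starts), chr7:45211884-45212133 on the minus strand (Dkkl1) and chr13:99900684-99900933 on the minus strand (Cartpt).
Rasgef1c: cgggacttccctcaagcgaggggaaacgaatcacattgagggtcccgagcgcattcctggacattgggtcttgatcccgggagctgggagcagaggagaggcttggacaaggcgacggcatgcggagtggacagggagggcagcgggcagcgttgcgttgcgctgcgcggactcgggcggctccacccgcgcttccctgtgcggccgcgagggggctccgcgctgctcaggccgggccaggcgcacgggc
Dkkl1: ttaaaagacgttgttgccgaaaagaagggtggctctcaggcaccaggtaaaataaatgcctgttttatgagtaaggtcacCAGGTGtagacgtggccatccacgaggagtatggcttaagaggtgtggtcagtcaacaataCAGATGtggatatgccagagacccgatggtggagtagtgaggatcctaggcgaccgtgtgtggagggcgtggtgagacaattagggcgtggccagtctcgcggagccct
Cartpt: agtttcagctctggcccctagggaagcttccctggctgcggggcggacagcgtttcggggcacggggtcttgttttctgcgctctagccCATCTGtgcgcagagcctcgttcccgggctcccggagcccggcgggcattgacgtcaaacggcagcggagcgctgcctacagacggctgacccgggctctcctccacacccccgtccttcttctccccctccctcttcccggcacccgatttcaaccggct

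C1ql2, Dsp, Rasgef1c and Cartpt had promoters rich in G and C (66.8% to 72.4%, with 20 to 27 CpG dinucleotides), that of Lct had 42.8% with 1 CpG, and that of Dkkl1 had 52.4% with 11. An E-box was present in 7 of 10 promoters of the leading HIP genes (70% of the entries found, for 8 of 12 genes) and in 5 of 7 of the leading EC genes (71.4%, for 6 of 12 genes), against 66.2% of 32851 promoters of all genes. The E-box form CAGATG, read as CATCTG on the other strand, was in 2 of 10 and 2 of 7, against 14.4% of all promoters. A motif of nuclear factor I, TTGGC, was in 2 of 10 and 1 of 7 (41.5% of all). These are matches of letters in a 250-base window, and no binding was measured.

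The 12 libraries separated by region. In log2 CPM, 2 libraries of different regions lay at least 89.0 apart, while 2 libraries of one region lay at most 79.8 apart. The first principal component separated HIP from EC and held 54.2% of the variance. The second held 8.92%, and along it both libraries of replicate 3 lay far from the others, at 34.7 in EC and 34.2 in HIP.

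Of 17314 genes tested, 9055 (52.3%) were DEGs between HIP and EC, 4612 higher in HIP (26.6%) and 4443 higher in EC (25.7%). Most differences were small, and the median absolute log2 fold change of the DEGs was 0.468. At an absolute log2 fold change of at least 1, that is 2-fold, 1736 genes were DEGs (10.0% of those tested), 1039 of them higher in HIP (6.00%) and 697 higher in EC (4.03%). All 6 mice had the same direction in 7583 of the 9055 DEGs and in 1617 of the 1736 with at least a 2-fold difference. The 6 HIP and 6 EC libraries did not overlap in 4691 genes (27.1%). The 2-fold DEGs comprised 1407 protein-coding genes, 837 of them higher in HIP, 300 long non-coding RNAs, 184 of them higher in HIP, 24 pseudogenes, and 5 of another or no annotated kind.

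Without replicate 3, 8300 of 17344 genes were DEGs (47.9%), 4275 higher in HIP and 4025 higher in EC, and 7986 genes were DEGs in the same direction with and without this mouse. At least a 2-fold difference was found in 1729 genes, of which 1587 were among the 1736. Of the 1729, 972 were higher in HIP and 757 higher in EC, against 1039 and 697 with all mice. Since more than 50% of all genes tested were DEGs with all mice, a list in which about that share is called is near the background, and the lists below are read by their 2-fold members and their medians as well.

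The largest differences toward HIP among protein-coding genes with a mean of at least 5 CPM, one direction in all mice and no overlap were in 12 genes. Lhx9, a LIM-homeodomain transcription factor, had 16.8 to 23.4 CPM (median 20.7) in HIP and 0.0273 to 0.301 (median 0.147) in EC, a log2 fold change of 7.02 (SE 0.22, edgeR adjusted p = 1.05e-08). C1ql2, a secreted C1q-like protein of mossy fibre synapses, had 49.9 to 118 CPM (median 65.8) in HIP and 0.492 to 1.11 (median 1.06) in EC, a log2 fold change of 6.31 (SE 0.16). For both genes the lowest HIP library was far above the highest EC library.

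Iyd, which encodes an iodotyrosine deiodinase and marks CA3, had 5.85 to 13.3 CPM (median 10.4) in HIP and 0.108 to 0.231 (median 0.149) in EC (log2 fold change 5.94, SE 0.14). Dsp, which encodes the desmosome protein desmoplakin, had 57.3 to 121 CPM in HIP and 0.495 to 2.25 in EC (5.77, SE 0.17), and an antisense gene, Gm10129, overlaps it. Lct, the gene of the enzyme lactase and a marker of granule cells, had 49.6 to 88.9 CPM in HIP and 0.934 to 1.66 in EC (5.67, SE 0.12). Spink8, a Kazal-type protease inhibitor gene and a marker of CA1, had 13.2 to 36.1 CPM in HIP and 0.506 to 1.44 in EC (4.87, SE 0.13), and replicate 3 had its lowest HIP level. Each of these 4 genes is a marker of one hippocampal field, and in each the groups stood apart without overlap.

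The other 6 leading HIP genes were Ttr, Cldn2, Prlr, F5, 1500015O10Rik and Clic6. Ttr, which encodes the thyroid hormone carrier transthyretin, ranged from 19.2 to 4800 CPM (median 1780) in HIP and from 1.69 to 15.8 (median 4.30) in EC, a log2 fold change of 7.33 with an SE of 1.30 (edgeR adjusted p = 0.000894). It was 6.72 without replicate 3, 8.24 without replicate 4 and 8.03 without replicate 6, and without replicate 4 F5 was 5.46 and Clic6 5.00, against 4.79 and 4.34 with all mice. All of them except 1500015O10Rik are in the choroid plexus list, which is described with the glia and non-neural cells below.

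The 12 leading EC genes had smaller differences, from -4.30 to -3.05. Otof, the gene of otoferlin, a calcium sensor of vesicle fusion, had 0.737 to 2.31 CPM (median 1.63) in HIP and 23.6 to 38.1 (median 28.5) in EC, a log2 fold change of -4.30 (SE 0.22, edgeR adjusted p = 1.73e-07). Rasgef1c, which encodes a protein with a guanine nucleotide exchange domain for Ras-type GTPases, had 1.31 to 4.57 CPM in HIP and 33.1 to 51.9 in EC (-4.22, SE 0.18). Neither gene overlapped between the regions, and replicate 3 had the highest HIP level of Rasgef1c.

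Oprk1, the kappa opioid receptor gene, had 0.737 to 1.49 CPM in HIP and 14.1 to 32.2 in EC (-4.14, SE 0.15). Cartpt, the precursor of a neuropeptide, had 0.455 to 0.874 CPM in HIP and 6.41 to 15.4 in EC (-3.78, SE 0.22). These are genes of opioid and peptide signalling, and in both all EC libraries were above all HIP libraries.

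Dkkl1, a gene related to the Dickkopf family, had 0.346 to 5.71 CPM (median 1.07) in HIP and 20.2 to 35.5 (median 22.3) in EC (-4.17, SE 0.32), and its highest HIP value was that of replicate 3. Without replicate 3 its log2 fold change was -4.71. Sema3a, a secreted axon guidance protein gene, differed by -3.12 (SE 0.13) and overlaps 4 other gene models, and Ngb, which encodes neuroglobin, by -3.05 (SE 0.26). Gm45623, Igfn1, Atp6ap1l and Gm11549 differed by -3.51, -3.49, -3.25 and -3.22.

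**Figure D2:**
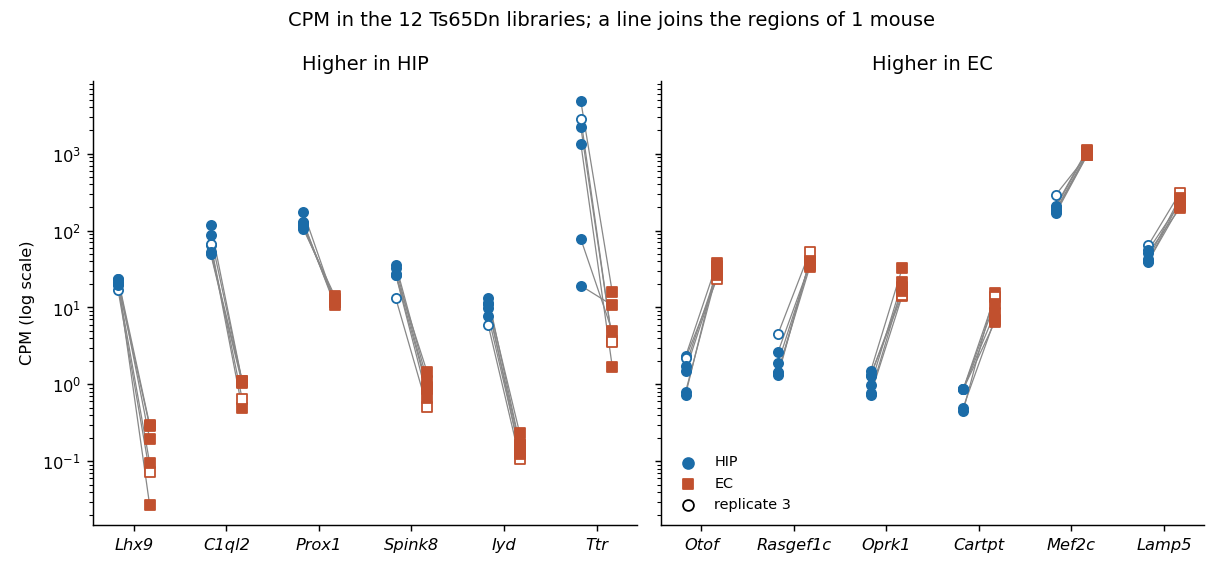
Each point is the CPM (log scale) of a gene in 1 Ts65Dn library, circles for HIP and squares for EC, with a line between the regions of each mouse and open points for replicate 3. The regions do not overlap for any of the 12 genes shown, and Ttr spreads most among HIP libraries, from 19.2 to 4800 CPM.

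The labelled tissues were checked against markers of the hippocampal fields and of cortical layers. All 13 dentate granule cell markers were DEGs, 10 higher in HIP and 3 higher in EC, with 7 higher in HIP by 2-fold or more and a median log2 fold change of 1.08. Prox1, the transcription factor that sets granule cell identity, had 106 to 176 CPM (median 120) in HIP and 10.8 to 14.2 (median 11.8) in EC (3.36, SE 0.12), with antisense genes overlapping it. Tdo2, the tryptophan dioxygenase gene, had 6.38 to 8.87 CPM in HIP and 0.434 to 0.836 in EC (3.38, SE 0.14), and Sema5a, an axon guidance gene, differed by 1.95 (SE 0.15). The 3 markers higher in EC were Calb1 (-0.85), C1ql3 (-0.43) and Plk5 (-0.25), and Calb1, a calcium buffer, is also used by cortical neurons. Plk5 was higher in EC in 4 of 6 mice, and it was not called without replicate 1, 3, 5 or 6 (edgeR adjusted p = 0.0752 to 0.15) nor in a fit without the term for each mouse, here called unpaired (0.0646).

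CA1 was represented by 6 markers, of which 4 were higher in HIP, each by 2-fold or more, and 2 higher in EC (median 1.89). Fibcd1, a chitin-binding receptor gene, had 93.7 to 177 CPM in HIP and 11 to 16.5 in EC (3.34, SE 0.12), and the transcription factor gene Pou3f1 had 38.7 to 60.8 and 6.04 to 15.5 (2.39, SE 0.18). Wfs1, which encodes the endoplasmic reticulum protein wolframin, and Mpped1 had higher levels in EC (-0.76 and -0.72). These 4 genes did not overlap between the regions.

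Of 6 CA2 markers, 4 were higher in HIP, 1 was higher in EC and Cacng5 was not called (median 1.42). Avpr1b, the vasopressin receptor known from CA2, had 0.56 to 1.53 CPM in HIP and 0 to 0.108 in EC (4.57, SE 0.49, and 5.18 without replicate 3), and Amigo2, an adhesion molecule gene, had 20.7 to 32.0 and 4.39 to 7.65 (2.10, SE 0.09). Pcp4, a regulator of calmodulin on the triplicated Mmu16 segment, was the member higher in EC, with 34.0 to 80.2 CPM in HIP and 58.9 to 149 in EC. Its ranges overlapped, but HIP was below EC in each of the 6 mice (-1.02, SE 0.07). Without replicate 3 they did not overlap, at 56.1 to 80.2 CPM in HIP and 107 to 149 in EC.

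The 7 CA3 markers had 5 members higher in HIP and 1 higher in EC (median 1.31). Homer3, a postsynaptic scaffold gene that overlaps Ddx49 on the other strand, had 23.3 to 40.1 CPM in HIP and 2.83 to 3.68 in EC (3.28, SE 0.10), and Grik4, a kainate receptor subunit gene, had 50.7 to 79.8 and 20.2 to 30.4 (1.31, SE 0.12). Coch was higher in EC, at 35.1 to 46.2 CPM against 2.77 to 15.3 in HIP (-2.29, SE 0.23). Nectin3 had 49.0 to 71.7 CPM in HIP and 43.4 to 71.6 in EC (0.07, SE 0.12, edgeR adjusted p = 0.673).

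Cortical layer markers went the other way. Of 10 upper layer markers, 8 were higher in EC and 2 in HIP, with a median log2 fold change of -1.23. Lamp5, a lysosomal membrane protein gene of superficial neurons, had 194 to 307 CPM in EC and 39.5 to 64.4 in HIP (-2.31, SE 0.10), and the homeobox gene Cux2 had 75.6 to 110 and 16.3 to 32.0 (-2.06, SE 0.11). Rorb, Rasgrf2 and Unc5d differed by -1.44, -1.38 and -1.30. Scnn1a, a sodium channel subunit gene, and Mdga1, a synaptic adhesion gene, were higher in HIP by 1.45 and 1.30.

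Of 18 deep layer markers, 12 were higher in EC, 10 of them by 2-fold or more, and 4 were higher in HIP (median -1.26). Foxp2, a forkhead transcription factor gene of deep neurons, had 8.98 to 20.9 CPM in EC and 1.43 to 6.51 in HIP (-2.36, SE 0.26), and Ccn2 and Cplx3, which mark the lowest cortical layer, differed by -2.39 (SE 0.39) and -2.25 (SE 0.26). The 4 higher in HIP were Bcl11b (1.54), Crym (0.88), Hs3st4 (0.78) and Etv1 (0.50). Bcl11b, known in cortex for neurons that project below it and also used by granule cells and CA1, had 141 to 202 CPM in HIP and 44.4 to 87.8 in EC.

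**Figure D3:**
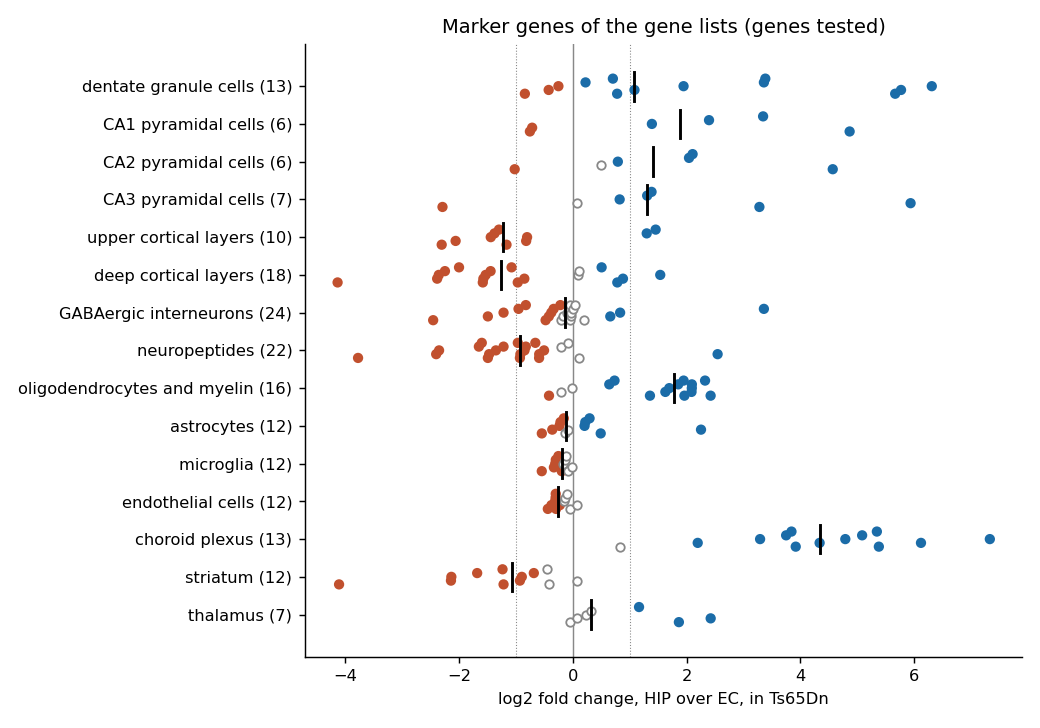
Each point is 1 gene tested in Ts65Dn, placed by its log2 fold change of HIP over EC (x axis), with lists on the y axis (number tested in brackets), filled blue points called higher in HIP, filled red points called higher in EC, open points not called, and a bar at each list's median. The field markers, myelin genes and choroid plexus genes lie mostly to the right (medians 1.08 to 4.34), and the layer markers, neuropeptides and striatal markers mostly to the left (medians -1.26 to -0.928).

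All 41 transcription factors chosen for regional identity were DEGs, 21 higher in HIP and 20 higher in EC, so their median was close to 0 (0.223), and 8 and 7 of them differed by 2-fold or more. DEGs made up 52.3% of all genes tested, and this list was chosen with earlier results of these data known. Without replicate 3, and in the unpaired fit, 40 were called. Zbtb20, a zinc finger repressor needed for hippocampal development, had 253 to 455 CPM in HIP and 55.3 to 66.0 in EC (2.45, SE 0.11). Neurod6, a basic helix-loop-helix factor of excitatory neurons, had 225 to 379 and 76.0 to 91.8 (1.87, SE 0.08), and its relative Neurod2 differed by 1.10 (SE 0.07). Prox1, Pou3f1 and Bcl11b, described above, were also among the 8.

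Mef2c, an activity-regulated MADS-box factor, was the reverse, at 954 to 1120 CPM (median 980) in EC and 167 to 291 (median 192) in HIP (-2.33, SE 0.10, edgeR adjusted p = 7.15e-08). Tbr1, a T-box factor of early-born cortical neurons, had 151 to 182 and 50.8 to 75.2 (-1.45, SE 0.05). For both genes the 6 mice had the same direction and the regions did not overlap.

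Of 24 interneuron genes tested, 3 were higher in HIP and 10 higher in EC, a share near that of all genes, and the median was -0.141. Gad1, the enzyme that makes GABA, had 383 to 429 CPM in HIP and 388 to 458 in EC, which overlap (-0.03, SE 0.05, edgeR adjusted p = 0.66), and Pvalb, of fast-spiking cells, had 23.2 to 45.2 and 23.8 to 72.0 (-0.18, SE 0.15, edgeR adjusted p = 0.333). Vip, of interneurons that inhibit other interneurons, had 40.9 to 63.7 CPM in EC and 14.1 to 25.5 in HIP (-1.50, SE 0.09). Chodl, of a rare long-range Sst-type cell, had 0.902 to 1.53 in EC and 0.0295 to 0.303 in HIP (-2.46, SE 0.35). Reln, also made by excitatory neurons of the superficial EC, differed by -0.96 (SE 0.16), and the genes higher in HIP were Prox1, Adarb2 (0.83) and Ndnf (0.66).

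Neuropeptide genes were mostly higher in EC. Of 22 tested, 18 were higher in EC, 9 of them by 2-fold or more, and 1, Nts, was higher in HIP (median -0.928). Adcyap1, the precursor of PACAP, had 26 to 45.6 CPM in EC and 3.59 to 11.3 in HIP (-2.41, SE 0.19), and Crh, the corticotropin-releasing hormone gene, 2.61 to 5.24 and 0.91 to 1.46 (-1.65, SE 0.16). Sst, the somatostatin gene, had 207 to 241 CPM in EC and 104 to 146 in HIP (-0.83, SE 0.09), and Cck, of cholecystokinin, differed by -0.51 (SE 0.10). Nts, the neurotensin gene, had 5.05 to 15.3 CPM in HIP and 0.506 to 3.27 in EC (2.55, SE 0.26).

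Among the genes of the ionotropic glutamate receptors that carry fast excitation, 6 of 19 AMPA and NMDA receptor genes tested were higher in HIP and 8 higher in EC (median -0.123). The pore subunit Gria1 had 831 to 1340 CPM in HIP and 369 to 482 in EC (1.40, SE 0.06), and its auxiliary subunit Shisa6 had 174 to 274 and 19.3 to 31.0 (3.02, SE 0.06, edgeR adjusted p = 9.61e-10). Grin2a, an NMDA receptor subunit, differed by 0.85 (SE 0.10), while Grin1, the subunit that every NMDA receptor needs, had 261 to 344 CPM in HIP and 299 to 386 in EC (-0.12, SE 0.08, edgeR adjusted p = 0.202). Higher in EC were the AMPA receptor auxiliary subunits Cacng3 (-1.36) and Cnih3 (-1.07), the pore subunit Gria4 (-0.85) and the NMDA receptor subunit Grin3a (-1.12). Within this one receptor family, members thus lay on both sides.

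The kainate and metabotropic glutamate receptor genes had 5 of 14 higher in HIP and 6 higher in EC (median -0.172). Beside Grik4, the kainate receptor auxiliary gene Neto1 was higher in HIP (0.61, SE 0.08), and Grik3 (-1.35, SE 0.11) and Grm8 (-1.42, SE 0.13) were higher in EC. Of 15 GABA receptor genes tested, 4 were higher in HIP and 9 higher in EC (median -0.244). Gabra5, the subunit of extrasynaptic receptors of HIP pyramidal cells, had 174 to 279 CPM in HIP and 51.7 to 82.9 in EC (1.74, SE 0.05) and overlaps Gm9962 on the other strand. Gabra3 had 254 to 281 CPM in EC and 40.4 to 75.3 in HIP (-2.16, SE 0.10), and Gabrd, another extrasynaptic subunit, 60.2 to 110 and 23 to 40.4 (-1.35, SE 0.09). The 3 subunits Gabra5, Gabra3 and Gabrd each separated the regions without overlap, in opposite directions.

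Receptors for monoamines and acetylcholine were more often higher in EC, 17 of 36 tested against 8 higher in HIP (median -0.385). The dopamine receptor gene Drd5 had 5.33 to 10.1 CPM in HIP and 0.198 to 0.773 in EC (4.10, SE 0.23), and the serotonin receptor gene Htr4 had 11.7 to 17 and 1.05 to 1.94 (3.25, SE 0.11). Adra1b, an adrenergic receptor gene, had 21.3 to 33.4 CPM in EC and 2.65 to 7.16 in HIP (-2.63, SE 0.10), and Hrh1, a histamine receptor gene, 20.2 to 25.4 and 4.57 to 9.59 (-1.75, SE 0.12). Chrm1, the muscarinic receptor gene, had 211 to 303 in HIP and 222 to 253 in EC (0.15, SE 0.08, edgeR adjusted p = 0.123), and it was called without replicate 3 (0.24, edgeR adjusted p = 0.00559).

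Voltage-gated potassium channel genes, which shape firing, had 10 of 37 higher in HIP and 22 higher in EC (median -0.308). Kcnh4 had 5.57 to 10.3 CPM in EC and 0.874 to 1.90 in HIP (-2.64, SE 0.14), and the modifier subunit gene Kcnf1 had 215 to 268 and 56.1 to 87.6 (-1.82, SE 0.09). Kcng2, also a modifier subunit, had 12.7 to 15.6 in HIP and 1.97 to 2.98 in EC (2.44, SE 0.11). Kcnq3, a subunit of the M-current channel, had 273 to 343 CPM in HIP and 272 to 339 in EC (0.03, SE 0.06, edgeR adjusted p = 0.675).

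Genes of axon guidance and adhesion lay on both sides. Of 22 Eph receptor and ephrin genes, 11 were higher in HIP, 7 of them by 2-fold or more, and 4 higher in EC (median 0.387). The receptor genes Epha6, Epha7 and Epha4 were higher in HIP by 1.69 (SE 0.09), 1.66 (SE 0.07) and 1.20 (SE 0.11), and Epha4 had 527 to 717 CPM in HIP and 234 to 328 in EC. The ligand gene Efna5 was higher in EC, at 21.1 to 33.7 CPM against 3.04 to 8.62 in HIP (-2.65, SE 0.17). Of 19 cadherin genes tested, which act in cell adhesion, 5 were higher in HIP and 10 higher in EC (median -0.355). Cdh13 had 162 to 240 CPM in EC and 44.0 to 58.4 in HIP (-2.01, SE 0.10), Cdh4 and Cdh22 differed by -2.02 and -1.98, and Cdh9 and Cdh8 were higher in HIP by 1.25 and 1.03.

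Genes of steroid hormone and neurotrophin signalling included several known from HIP. Nr3c2, the mineralocorticoid receptor, had 194 to 309 CPM (median 253) in HIP and 43.7 to 50.5 (median 47.0) in EC (2.42, SE 0.09, edgeR adjusted p = 2.63e-08). Hsd11b1, which regenerates active corticosteroid, had 25.3 to 49.8 and 7.41 to 13.6 (1.72, SE 0.13), although Lamb3 overlaps it on the other strand. Nr3c1, the glucocorticoid receptor, had 115 to 142 in HIP and 132 to 170 in EC (-0.18, SE 0.06, edgeR adjusted p = 0.0411) and was not called without replicate 1, 4, 5 or 6 (0.0512 to 0.147). Esr1, an estrogen receptor gene, differed by -1.76 (SE 0.17). Of 9 steroid hormone genes tested, 4 were higher in HIP and 4 higher in EC. Of 7 neurotrophin genes, 6 were higher in HIP and 1, the receptor Ntrk2 (-0.54, SE 0.06), was higher in EC. Sort1, among these 6, was not called without replicate 1, 2, 4, 5 or 6 (edgeR adjusted p = 0.0691 to 0.128). Among the ligands Ntf3 had 6.30 to 9.19 CPM in HIP and 1.55 to 3.58 in EC (1.61, SE 0.15), and Bdnf had 34.7 to 82.2 and 33.0 to 44.8, which overlap (0.50, SE 0.10).

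Immediate early genes, which neurons transcribe within minutes of activity, had 12 of 18 members higher in EC and 3 higher in HIP (median -0.503), and 8 and 3 with unpaired mice. Fos had 3.46 to 30.4 CPM (median 6.30) in HIP and 6.14 to 93.6 (median 13.5) in EC, and Egr2 0.442 to 7.27 and 2.05 to 28.3. Both ranges overlapped because the mice differed widely, yet HIP was below EC in each mouse (-1.21, SE 0.10, and -2.04, SE 0.13). With unpaired mice Fos was not called (edgeR adjusted p = 0.0971). Nr4a3, an orphan nuclear receptor gene, had 80.2 to 138 CPM in HIP and 24.2 to 43.9 in EC (1.84, SE 0.13). In replicate 6 the summed level of the list was the highest in both regions, 1400 CPM in HIP and 2290 in EC, against medians of 855 and 934.

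Genes of immature neurons and cell division did not move as one, with 7 of 14 tested higher in HIP and 3 higher in EC (median 0.206). Igfbpl1, known from immature granule cells, had 0.665 to 3.62 CPM in HIP and 0.082 to 0.29 in EC (3.35, SE 0.34), and Mki67, of dividing cells, 0.945 to 3.11 and 0.651 to 1.35 (0.91, SE 0.28), though it was not called without replicate 5 (edgeR adjusted p = 0.0658). Dcx, the microtubule-binding doublecortin gene, was higher in EC, at 24.6 to 41.7 CPM against 13.7 to 22.4 in HIP (-0.92, SE 0.13), as were Stmn1 (-1.52) and Tubb3 (-0.88).

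Most myelin genes were higher in HIP. Of 16 oligodendrocyte genes, 13 were higher in HIP, 11 by 2-fold or more, and 1 was higher in EC (median 1.77). Mbp, which encodes a main protein of compact myelin, had 2860 to 4180 CPM in HIP and 724 to 1320 in EC (1.85, SE 0.14). Opalin, a marker of mature oligodendrocytes, had 32.9 to 47.3 in HIP and 6.41 to 10.1 in EC (2.42, SE 0.12). The summed level of the list was 7510 to 11400 CPM in HIP and 1990 to 3260 in EC, with Mbp taking the most counts, and no library overlapped. Cspg4, of oligodendrocyte precursors, was the member higher in EC (-0.42, SE 0.08), and Pdgfra and Gpr17, also of the precursor lineage, were not called, although Pdgfra was without replicate 3 (edgeR adjusted p = 0.0176).

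Astrocyte genes had 5 of 12 higher in HIP and 5 higher in EC (median -0.116). Gfap, the intermediate filament of fibrous astrocytes, was apart from them, with 293 to 506 CPM in HIP and 44.6 to 135 in EC (2.25, SE 0.13), while Slc1a2, the main glutamate transporter, had 2920 to 3480 and 3150 to 4400 (-0.22, SE 0.06, not called without replicate 1 at an edgeR adjusted p of 0.0506). Of 12 microglial genes, 7 (58.3%) were higher in EC and none in HIP, beside 52.3% called of all genes. None differed by 2-fold (median -0.196), and Aif1 was the farthest at -0.55 (SE 0.10). Without replicate 3, 4 were DEGs (33.3%, beside 47.9% of all genes), and with unpaired mice also 4. Aif1 was not called in the unpaired fit (edgeR adjusted p = 0.0678). Of 12 endothelial genes, 7 (58.3%) were higher in EC, none of them by 2-fold (median -0.264), and 6 without replicate 3 or with unpaired mice. Ly6c1 differed by -0.44 (SE 0.07) and Cldn5, a tight junction gene, by -0.38 (SE 0.06).

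Markers of tissues next to the dissected regions were read in every library. Of 13 choroid plexus genes tested (15 in the list), 12 were higher in HIP, each by 2-fold or more, and none in EC, with a median log2 fold change of 4.34 (3.99 without replicate 3). Their summed level in HIP was 8040, 4520, 5270, 364, 2900 and 508 CPM in replicates 1 to 6, and 226 to 296 CPM in EC, with Ttr taking the most counts in HIP and Enpp2 in EC. Otx2, which defines choroid plexus cells, had 1.12 to 16.7 CPM in HIP and 0.0362 to 0.41 in EC (5.38, SE 0.46), and no marker was at 0 in all 6 libraries of a region. Ttr and Clic6 varied between HIP libraries by far more than Lhx9, C1ql2 or Lct did. The choroid plexus lies in the ventricle along the hippocampus, and its part in the differences and the spread of Ttr, Cldn2, Prlr, F5, 1500015O10Rik and Clic6 was not tested.

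Thalamic markers summed to 130 to 167 CPM in 5 HIP libraries and 241 in that of replicate 3, against 71.4 to 83.0 in EC, and Prkcd took the most counts in HIP. Prkcd, also known from other neurons, had 35.8 to 56.7 in HIP and 6.37 to 9.76 in EC (2.42, SE 0.13), and 3 of 7 genes tested were higher in HIP and none in EC (median 0.318, and 0.0957 without replicate 3). Striatal markers summed to 302 to 490 CPM in EC and 198 to 235 in HIP, with Pde10a, itself a triplicated Mmu17 gene, taking the most counts, and 9 of 12 were higher in EC (median -1.08), or 11 without replicate 3. Adora2a, the adenosine receptor gene of striatal projection neurons, had 1.86 to 16.8 CPM in EC and 1.49 to 2.41 in HIP (-1.68, SE 0.39). The part of neighbouring striatum in the levels of Drd1 (-1.24, SE 0.20) and Tac1 (-1.22, SE 0.22) in EC was not tested.

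Meningeal genes had 3 of 12 higher in HIP and 1 higher in EC (median -0.0189), or 1 and 0 with unpaired mice and 2 and 0 with DESeq2, and summed to 76.4 to 311 CPM in HIP and 95.3 to 200 in EC, with Dcn and Igfbp2 taking the most counts. Blood genes summed to 57.3 to 151 CPM in HIP and 104 to 300 in EC, led by the haemoglobin gene Hbb-bs, and 4 of 5 were higher in EC (median -0.755), or 1 with unpaired mice. Hypothalamic markers were low, at a sum of 3.51 to 6.07 CPM in HIP and 2.75 to 5.03 in EC, and 3 of 9 were tested, Hdc higher in HIP (1.18, SE 0.31) and Trh higher in EC (-2.35, SE 0.38). Of the 13 proteins encoded by mitochondrial DNA, 8 had transcripts higher in EC (61.5%, beside 52.3% called of all genes) and none in HIP (median -0.255). Among them mt-Cytb differed by -0.38 (SE 0.07), and with unpaired mice 4 were DEGs.

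**Figure D4:**
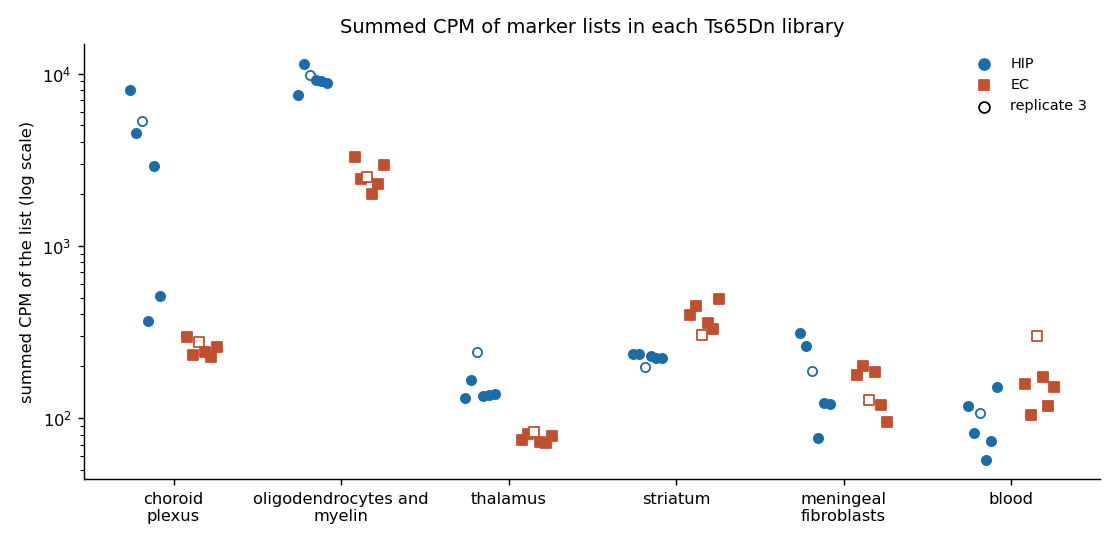
Each point is the CPM summed over a marker list (log scale) in 1 Ts65Dn library, circles for HIP and squares for EC, with open points for replicate 3. Myelin and choroid plexus sums are higher in HIP, but the choroid plexus sum runs from 364 to 8040 CPM among HIP libraries, and meningeal and blood sums overlap between regions.

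The triplicated genes are carried in the same number of copies in both regions of a mouse, so the pairing sets the copy number aside. Of 78 Mmu16 genes tested, 23 were higher in HIP and 13 higher in EC (median 0.0196), and of 38 Mmu17 genes, 10 and 7 (median 0.05), beside 52.3% called of all genes. With unpaired mice the counts were 19 and 6 on Mmu16 and 7 and 5 on Mmu17. Clic6 had the largest difference, with 4.41 to 133 CPM in HIP and 0.325 to 3.91 in EC (4.34, SE 0.70, and 5.00 without replicate 4), and it is also a choroid plexus gene. Sh3bgr had 1.96 to 2.68 and 0.165 to 0.561 (2.39, SE 0.22), B3galt5, a galactosyltransferase gene, 88.9 to 161 and 29.3 to 44.1 (1.83, SE 0.09), and Prr18, of Mmu17, 68.5 to 113 and 23.3 to 39.2 (1.74, SE 0.12). The non-coding 4930506C21Rik, which overlaps Mpc1 on the other strand, differed by 1.58 (SE 0.17).

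Toward EC, 1 triplicated gene had no overlap between the regions with all mice. It was Rps6ka2, a ribosomal S6 kinase gene of Mmu17, at 79.5 to 116 CPM in EC and 33.4 to 42.7 in HIP (-1.47, SE 0.07, edgeR adjusted p = 1.42e-07). Pcp4, described with the CA2 markers, also had no overlap once replicate 3 was left out. Among genes often studied in Down syndrome, App, the amyloid precursor, had 1960 to 3360 CPM in HIP and 2370 to 3690 in EC (-0.18, SE 0.05, edgeR adjusted p = 0.0127). Dyrk1a, a kinase gene, had 89.5 to 144 and 92.7 to 145 (-0.07, SE 0.05, edgeR adjusted p = 0.234). For both genes the lowest level in each region was that of replicate 3, and the unpaired fit did not call App (edgeR adjusted p = 0.298). Sod1, superoxide dismutase, differed by -0.27 (SE 0.05, not called in the unpaired fit at an edgeR adjusted p of 0.0504), Rcan1, a calcineurin regulator, by -0.43 (SE 0.07), Ets2 by -0.38 (SE 0.04) and Ttc3 by -0.35 (SE 0.05), all higher in EC. The oligodendrocyte factors Olig1 and Olig2 were higher in HIP by 0.64 (SE 0.07) and 0.73 (SE 0.06), as were Kcnj6, a potassium channel gene (0.66, SE 0.08), the kinase gene Hunk (1.08, SE 0.14) and the protease gene Adamts1 (1.32, SE 0.10).

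The same comparison in the 6 wt littermates shared no library with that in Ts65Dn. There, 10541 of 17196 genes were DEGs (61.3%), 5336 higher in HIP and 5205 higher in EC. Of 8934 Ts65Dn DEGs tested in wt, 8891 (99.5%) had the same direction and 8190 (91.7%) were DEGs in that direction, and of 1640 with at least a 2-fold difference, 1638 (99.9%) and 1605 (97.9%). Over 16953 genes, which are not independent of each other, the log2 fold changes of both genotypes had a Pearson r of 0.954 and a Spearman rho of 0.924. Among the leading genes, C1ql2 differed by 5.77 in wt, Lct by 6.11, Otof by -3.80 and Rasgef1c by -4.15.

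Lhx9 had a larger value in wt, 9.07 against 7.02, where wt EC had 0 to 0.0824 CPM, so the ratio rests on very few counts in EC. Exceptions in direction were few, with 3 genes called in opposite directions. Efcab6 had log2 fold changes of -0.31 in Ts65Dn and 0.30 in wt, Clic5, a chloride intracellular channel gene, 0.28 and -0.20, and the pseudogene Gm1821 3.19 and -2.64. Efcab6 was not called in Ts65Dn without replicate 1, 2 or 4 (edgeR adjusted p = 0.0566 to 0.0637), nor Clic5 without replicate 2 (0.0521), nor either with unpaired mice (0.0644 and 0.291). Gm1821 varied widely within a region (37.2 ± 44.7 CPM in HIP and 2.48 ± 3.18 in EC, SD, n = 6), and its reads may be shared with its parent gene.

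**Figure D5:**
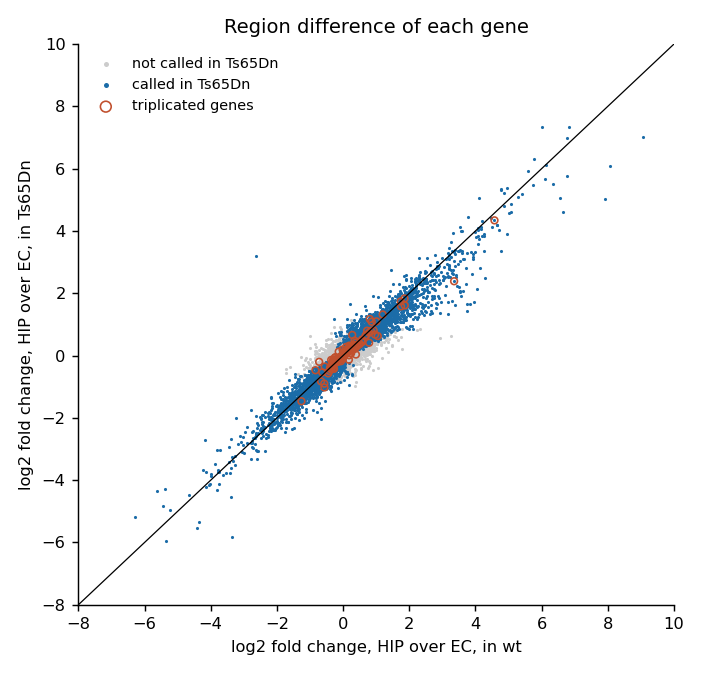
Each point is 1 of the 16953 genes tested in both genotypes, placed by its log2 fold change of HIP over EC in wt (x axis) and in Ts65Dn (y axis), blue where called in Ts65Dn, grey where not, and ringed in red where triplicated. Points lie along the line of equal values, ringed genes included, with Gm1821 alone far in the opposite quadrant.

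Whether a region difference in Ts65Dn differed from that in wt was tested as the genotype by region interaction over all 24 libraries. With edgeR, 0 of 18109 genes passed the adjusted threshold, and 742 (4.10%) had an unadjusted p under 0.05. Without replicate 3 of Ts65Dn, the mouse with triplicated genes at the wt level, 0 passed and 1176 of 18220 had an unadjusted p under 0.05, and with unpaired mice 0 and 441. DESeq2 also gave 0 (503 unadjusted) and limma-voom 0 (757 unadjusted). On simulated counts the edgeR interaction test recovered 79.5% of genes with a 2-fold interaction and 54.5% of those with a 1.5-fold one. Interactions of these sizes, and smaller ones, could therefore have been missed. The simulated interaction was given to all Ts65Dn mice, replicate 3 included, and recovery of one absent from that mouse was not tested. The 5 genes with the smallest p were Efcab6 (interaction -0.61, unadjusted p = 7.9e-05), Lrrc32 (-0.65 in Ts65Dn and -1.32 in wt), Itga8, an integrin gene (1.39 and 1.93), Clic5, and Lifr, the leukaemia inhibitory factor receptor, and each had an adjusted p of 1. Without a filter on low counts, 37 of 36766 genes passed, 1 of them triplicated. With the filter, none of the triplicated genes passed, nor did any member of the other 31 lists. Penk, the enkephalin precursor, had -0.93 in Ts65Dn and 0.17 in wt (edgeR unadjusted p = 0.000759), Drd2, the dopamine D2 receptor, -0.45 and 0.92 (0.000776), and Sst -0.83 and -0.37 (0.00407), none of which passed after adjustment. Penk and Drd2 belong to the striatal list, whose summed level in EC was 302 to 490 CPM in Ts65Dn and 298 to 315 in wt, or 225 to 353 and 224 to 252 without the triplicated Pde10a, and the part of striatal tissue in these values was not tested.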

How the data were processed

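Total RNA was extracted with a column kit (RNeasy plus) and sequenced as single-end reads of 50 bases on a HiSeq 4000. The labels describe a stranded poly-A mRNA kit and the methods a stranded kit for total RNA with ribosomal depletion, so the selection step is uncertain. The authors aligned reads with Hisat2 to GRCm38 (Ensembl 99) and deposited raw counts per gene from HTSeq-count. The strand setting is not given in the sources used here, so reads of a gene and its antisense partner cannot be told apart. Besides those named in the text, the genes with an annotated antisense partner include F5, 1500015O10Rik, C1ql3, Pou3f1, Amigo2, Mdga1, Cux2, Hs3st4, Ccn2, Zbtb20, Adarb2, Reln, Gad1, Shisa6, Cacng3, Cnih3, Neto1, Gabra3, Drd5, Kcng2, Kcnq3, Epha6, Epha7, Cdh8, Cdh9, Cdh13, Cdh22, Nr3c2, Bdnf, Ntrk2, Mki67, Slc1a2, Mbp, Otx2, Enpp2, Pde10a, Rcan1, App, Ttc3, Sod1, Olig1, Kcnj6, Itga8, Sema5a, Penk, Grin1, Pdgfra and Gpr17. The submitters' processing notes name bcl2fastq 2.17.1.14, DESeq2 and mm10. Deposited tables with the authors' own tests (log2 fold changes, p-values and the like) were not used. The table has 55385 genes, 36766 with at least 1 count, and 99.6% matched GENCODE vM21 by identifier; 0 rows named no gene and 0 columns of counts went unused.

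DEGs were called on the counts with edgeR 4.0.16 (limma 3.58.1, R 4.3.3), with filterByExpr, TMM and a term for each mouse. The pairing comes from the mouse number in the labels, and after removal of region means the 2 regions of a mouse correlated at 0.178 to 0.426, each library best with its own number. CPM were computed from counts and TMM-scaled totals. Alternatives were DESeq2 1.42.0, its size factors, limma-voom, no filter, at least 10 counts in every library, a test against a 2-fold change, no replicate block and leaving out each mouse. DESeq2 without replicate 3 was added after the data were seen. On simulated counts (17314 genes) the test recovered 86% of genes changed 2-fold and 61.5% of those changed 1.5-fold.

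The members and the gene lists were chosen with earlier results of these data known. The genes named are the 12 largest differences in each direction under the criteria in the text, up to 5 triplicated genes in each direction without the CPM minimum (toward EC only 1 met the criteria), the members of each list with the largest differences and highest CPM, and the 5 smallest interaction p-values. Plk5, Nr3c1, Dcx, Pdgfra, Gpr17, Nectin3, Penk, Drd2, Gm1821 and further members were named after their values were seen. The 33 lists include the triplicated genes of both segments, taken from the study's gene list. Some genes that the rule takes are not reported here. Promoters came from RefSeq. In fits with a term for each mouse, p-values rest on how the HIP to EC difference varied between these mice. In unpaired fits they also take in the spread of levels between mice.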

Additional observations from a re-analysis of the deposited data

Results flagged for a closer look

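A library was examined where its gap to the nearest of the 6 libraries of its region, divided by their range, exceeded Dixon's 95% limit of 0.625. Chance alone gives this in about 1 of 20 groups. Of the 17 values found in Ts65Dn, 13 belonged to replicate 3. These 13 are not separate findings, since the triplicated genes of each segment enter in each region both as a median ratio and as a sum. The triplicated genes of this mouse had median ratios to wt of 1.02 (Mmu16) and 0.972 (Mmu17) in HIP and 0.99 and 0.974 in EC. Their summed levels were 6500 CPM (Mmu16) and 922 CPM (Mmu17) in HIP, against medians of 10100 and 1380, and 7090 and 964 CPM in EC, against 10700 and 1420.

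In HIP, replicate 3 had the lowest sum of striatal markers (198 CPM, median 225). Pde10a, the most abundant of these, is itself a triplicated Mmu17 gene, with 72.0 CPM in this library, 116 to 132 in the other Ts65Dn HIP libraries and 68.6 to 94.2 in wt. The other 12 striatal markers, summed after these values were seen, gave 126 CPM in replicate 3 and 95.9 to 117 in the other libraries. Replicate 3 also had the highest HIP sum of thalamic markers (241 CPM, median 136) and HIP level of Dkkl1 (5.71 CPM, median 1.07), and in EC the highest sum of blood genes (300 CPM, median 154) and the lowest sum of 10 motile cilia genes (4.63 CPM, median 15.1), a list chosen after its values were seen. Other mice gave the remaining 4. The sum of dentate granule cell markers was 1320 CPM in HIP of replicate 2 (median 972), that of immediate early genes 1400 CPM in HIP of replicate 6 (median 855), that of mitochondrially encoded transcripts 36100 CPM in HIP of replicate 5 (median 29000), and that of monoamine and acetylcholine receptors 917 CPM in EC of replicate 2 (median 998).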

How the results depend on the processing

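The number of DEGs between HIP and EC in Ts65Dn, 9055, was 8169 with DESeq2, 9058 with its size factors, 9097 with limma-voom, 9509 with no low-count filter and 8274 with at least 10 counts in every library. Without the replicate block, that is with the mice unpaired, it was 8350, with 1714 at 2-fold against 1736. Leaving out each mouse gave 7587 to 8769 DEGs and 1692 to 1834 at 2-fold, and DESeq2 without replicate 3 gave 7188. The count at 2-fold was 1129 (657 higher in HIP, 472 in EC) with at least 10 counts in every library and 859 (496 and 363) when tested against a 2-fold change, both stricter by construction. In wt, leaving out each mouse gave 9680 to 10196 DEGs and no replicate block 9497. The interaction gave 0 genes in all fits that left out a mouse and in the fit without the block, but 37 (8 and 29, of 36766) without a filter on low counts, 1 of them triplicated. The cause was not tested. Of the 342 genes examined singly under the alternatives, no DEG changed direction, while 20 that were not DEGs (Gad1, Kcnq3, Nectin3 and Igfbp2 among them) changed sign under at least 1. Among named genes and lists, 116 values no longer passed the threshold under some alternative, 24 newly passed, and 6 list counts moved by over 1.5 times, in the microglial, meningeal, blood and mitochondrial lists.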

Other observations

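Long non-coding RNAs were among the differences not described above, and those named here were chosen after their values were seen. Neat1, the scaffold of nuclear paraspeckles, had 92.1 ± 17.4 CPM in HIP and 11.3 ± 5.00 in EC (SD, n = 6, log2 fold change 3.09, SE 0.20, and 3.21 in wt). Malat1 had 147 ± 73.1 and 51.8 ± 22.4 CPM and overlapped between regions (1.47, SE 0.25). Bc1, a neuronal RNA of dendrites, was higher in EC, at 707 ± 210 CPM against 358 ± 97.0 in HIP (-0.98, SE 0.24).

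Genes of the motile cilia that ependymal cells carry were also read, as a list of 10 chosen after their values were seen. Their summed level was 22.5 to 58.7 CPM in Ts65Dn HIP and 4.63 to 17.8 in Ts65Dn EC, where 4.63 was replicate 3 and the other libraries had 13.4 or more. In wt it was 28.7 to 108 in HIP, where 108 was replicate 4 and the next highest 58.2, and 5.38 to 13.8 in EC. Foxj1, the transcription factor of motile cilia, had 14.3 ± 3.99 CPM in HIP and 3.61 ± 1.35 in EC of Ts65Dn (log2 fold change 1.98 in Ts65Dn and 2.36 in wt). The median log2 fold change of the list was 1.68 in Ts65Dn and 3.44 in wt, with 1.65 and 3.73 for Dnah12 and 1.72 and 3.96 for Tmem212, and no interaction with genotype passed after adjustment. The part of the ventricle wall in the HIP samples was not tested.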
